A study of Mus musculus with 2 samples.

Results

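Collagens are the main structural proteins of the extracellular matrix, and the genes that encode their chains were followed here through the repair of injured mouse muscle. The members were all genes whose symbol has the form Col, a number, a and a number, a rule that uses no measured value. It found 44 of the 27998 genes in the deposited tables. By the assemblies their chains form, 11 are fibrillar, 9 belong to basement membranes and 24 are other collagens, the last made up of 6 beaded filament (type VI) chains, 9 FACIT chains that sit on the surface of fibrils, 3 network-forming chains, 4 transmembrane chains and 2 further chains. Transcripts were counted in single cells (10x Chromium v3, 3′ ends, unique molecular identifiers) of dissociated tibialis anterior muscle from C57BL/6J mice, with 1 library from 2 days and 1 from 7 days after the muscle was injected with notexin, a venom phospholipase that destroys muscle fibres. No genotype, transgene or drug separated them, and the annotation table gives 1 mouse per library. The labels give both mice as 7 months old and female, whereas the annotation table gives 4 months for the day 2 mouse, 7 months for the day 7 mouse, and male sex for both. Y-linked genes held 6575 counts at day 2 and 4856 at day 7, against 5 and 1 counts of Xist, the transcript that silences an X chromosome in female cells.

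With 1 library per time point, time, mouse and library cannot be told apart, and none of the differences could be set against a spread between replicates. Intervals in parentheses are 95% intervals that cover counting error only. After limits on genes, transcripts and mitochondrial share, 3208 cells at day 2 and 3221 at day 7 were kept, with median depths of 9010 and 6557 counts, and 3178 and 3196 of them carried a cell type from the authors. The 2 libraries shared 4 called barcodes, of which 1 was kept. Levels are CPM, the counts of a gene per 1000000 counts of a cell class, which is the set of cells with related annotations. They are not divided by transcript length, since the chemistry counts 1 tag per transcript whatever its length. CPM is a share of the RNA of a class, so less of a transcript per cell and more of everything else cannot be told apart.

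A collagen molecule is a triple helix of 3 chains. Type I collagen has 2 alpha1 chains (Col1a1) and 1 alpha2 chain (Col1a2), type III has 3 copies of the Col3a1 chain, and both give tendon and muscle connective tissue their tensile fibrils, with type V chains (Col5a1, Col5a2, Col5a3) as the regulators of fibril diameter. Type IV collagen (Col4a1 with Col4a2 in nearly every tissue) is the mesh of basement membranes, to which types XV and XVIII (Col15a1, Col18a1) are attached. Type VI collagen (Col6a1, Col6a2, Col6a3) forms beaded filaments between basement membrane and fibrils, and its loss causes muscular dystrophy. In muscle, the fibro-adipogenic progenitors (FAPs), mesenchymal cells of the interstitium, are the best known source of fibrillar collagen, and endothelial and mural cells of vessels make basement membrane.

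The collagen share of the RNA was low at day 2 and high at day 7. Of the counts of kept cells, 0.206% (0.204 to 0.207) were collagen in the day 2 library, or 69975 counts, and 2.53% (2.52 to 2.53) in the day 7 library, or 698020 counts. The make-up of this share changed as well. At day 2 the basement membrane group led with 54.5% of all collagen counts, against 32.7% for the fibrillar group and 12.8% for the other collagens. At day 7 the fibrillar group held 78.6%, the basement membrane group 9.23% and the other collagens 12.1%. As shares of all counts, the fibrillar group was at 0.0672% and then 1.99%, the basement membrane group at 0.112% and then 0.233%, and the other collagens at 0.0264% and then 0.307%. Free RNA, measured in barcodes with 1 to 100 counts, moved with this: collagens made up 0.0943% (0.0909 to 0.0978) of it in the earlier library and 1.22% (1.21 to 1.23) in the later one.

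The order of single genes changed with the groups. At day 2 the highest was Col4a1 with 22131 counts, followed by Col4a2 with 14010, Col3a1 with 8393, Col1a2 with 4927 and Col1a1 with 3901. At day 7 Col3a1 led with 216681 counts, followed by Col1a1 with 174033, Col1a2 with 109665, Col4a1 with 31501 and the type VI chain Col6a3 with 28760. Of the 44 members, 30 held at least 100 counts over both libraries (9 fibrillar, 7 basement membrane and 14 other), 13 held 1 to 99 counts, and Col10a1, a chain of growth plate cartilage, held 0 in both, which allows up to 3 counts in each library. Col2a1, the chain of cartilage fibrils, had 0 counts at day 2 and 7 at day 7.

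Several members are neighbours in the genome (GENCODE vM21, build mm10, also called GRCm38). Col4a1 (chromosome 8, 11198423 to 11312826, minus strand) and Col4a2 (chromosome 8, 11312805 to 11449287, plus strand) lie head to head and their annotated ends overlap by 22 bases. Col4a4 and Col4a3 lie head to head on chromosome 1 with 71 bases between them, and Col4a6 and Col4a5 head to head on chromosome X with 1.3 kb between them. Col3a1 (chromosome 1, 45311538 to 45349706, plus strand) and Col5a2 (chromosome 1, 45374321 to 45503282, minus strand) lie tail to tail 24.6 kb apart, and Col6a2 and Col6a1 point the same way on chromosome 10, 85.2 kb apart. Col1a1 (chromosome 11, 94936224 to 94953042) and Col1a2 (chromosome 6, 4504814 to 4541544), whose chains share a molecule, lie on separate chromosomes.

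The 120 bases before the start are given here for 4 genes that mark the range of behaviour described below, from the RefSeq promoter table of build GRCm38.p6, which held windows for 35 of the 44 members. Col3a1 was the most abundant member at day 7, Col5a1 is a fibrillar chain of middle abundance, Col15a1 had the largest day 7 to day 2 ratio of the 25 members with a ratio in FAPs, and Col8a1 was the member that was lower at day 7 in FAPs. Capitals mark matches, on either strand, to the letters TATAAA, a core promoter box, or GGGCGG, the box bound by Sp1, and all are written 5′ to 3′ on the strand of the gene.
Col3a1, chr1:45311418-45311537, plus strand: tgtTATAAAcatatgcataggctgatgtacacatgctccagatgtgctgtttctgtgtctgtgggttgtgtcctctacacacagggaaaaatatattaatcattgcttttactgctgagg
Col5a1, chr2:27886305-27886424, plus strand: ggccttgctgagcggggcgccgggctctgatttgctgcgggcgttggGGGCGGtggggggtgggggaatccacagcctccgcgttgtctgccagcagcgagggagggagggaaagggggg
Col15a1, chr4:47207892-47208011, plus strand: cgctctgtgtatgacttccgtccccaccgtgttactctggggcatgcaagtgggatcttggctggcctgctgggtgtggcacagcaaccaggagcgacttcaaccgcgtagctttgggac
Col8a1, chr16:57754738-57754857, minus strand: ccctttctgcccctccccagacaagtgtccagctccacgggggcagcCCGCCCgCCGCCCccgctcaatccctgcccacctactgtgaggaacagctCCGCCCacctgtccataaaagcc
The letters TATAAA, at any position in the 120 bases, stood in 3 of the 38 collagen windows (Col3a1, Col10a1 and Col17a1) and in 6.34% of all 32851 windows. The letters GGGCGG stood in 18 of 38 and in 26.5%. In Col3a1 the match lay at the end far from the start. The motif CCAAT, also searched on both strands, was in 6 of 38 and in 21.3%, and none of the 4 printed stretches held it. These are letter matches within 120 bases and say nothing about binding.

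**Figure D1:**
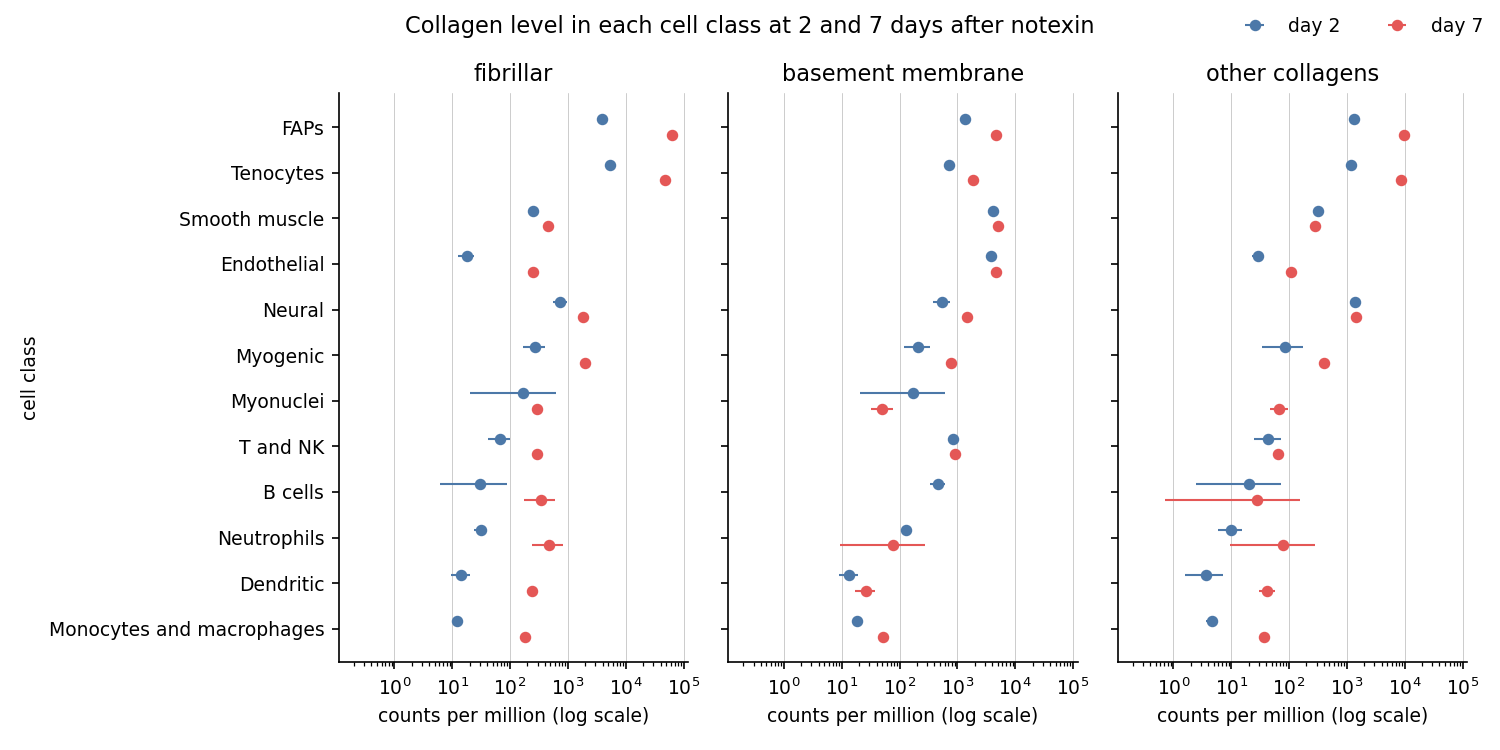
Level of the fibrillar, basement membrane and other collagen groups in each cell class, in CPM on a log axis, at day 2 (blue) and day 7 (red), with 95% counting intervals and 1 library per time point; a class at 0 has no point. Fibrillar collagen in FAPs moved from 3955 to 63384 CPM, whereas the basement membrane group in endothelial and smooth muscle cells lay between 3880 and 4965 CPM at both times. The smooth muscle class carried endothelial markers as well as its own.

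FAPs were the largest source by counts. They were 6.77% of the cells at day 2 and held 15.1% of all counts but 48.7% of the collagen counts, and at day 7 they were 25.2% of the cells with 29.5% of all counts and 90.5% of the collagen counts. All 6 marker genes fixed for the class (Pdgfra, Dcn, Gsn, Dpt, Lum, Cd34, none of them a collagen) were detected at both times. Their sum was 11164 CPM at day 2 and 26298 CPM at day 7. Detection alone is a weak check of the annotation, since free RNA can also give counts. Markers of tenocytes, the fibroblasts of tendon, also moved within FAPs, from 130 CPM with 3 of 6 detected (Fmod, Comp and Mkx at 0) to 1175 CPM with 6 of 6 detected, and their part in the collagen values was not tested. Endothelial markers stayed at 38.8 and 39.4 CPM in FAPs.

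The source of the 3 groups differed. For the fibrillar group FAPs held 88.8% of the counts at day 2 and 94.1% at day 7, and tenocytes, 16 and 48 cells, held 3.64% and 3.91%. For the basement membrane group the main source changed from vessel cells to FAPs. Endothelial cells and the class annotated as smooth muscle together held 79.1% at day 2 and 32.9% at day 7, and FAPs 18.0% and 57.8%. The 2 vessel classes are put together because the smooth muscle class held more endothelial marker (3956 CPM at day 2 and 6455 CPM at day 7) than marker of its own (2407 and 4766 CPM), and all its values in the text and plots are those of a mixed class. Alone they were at 54.4% and 20.9% (smooth muscle) and 24.7% and 12.0% (endothelial). For the other collagens FAPs held 76.9% and 91.9%. Shares of this kind follow the number of cells as well as the level in each. With each cell class weighted equally, a setting added after seeing the data, FAPs held 10.8% and 23.6% of the basement membrane group, endothelial cells 31.3% and 23.8% and smooth muscle 32.8% and 25.6%. In the same weighting the FAP share of the fibrillar group was 36.5% at day 2 and 53.8% at day 7, and the 16 tenocytes of day 2 had a higher level (5269 CPM) than FAPs (3955 CPM).

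**Figure D2:**
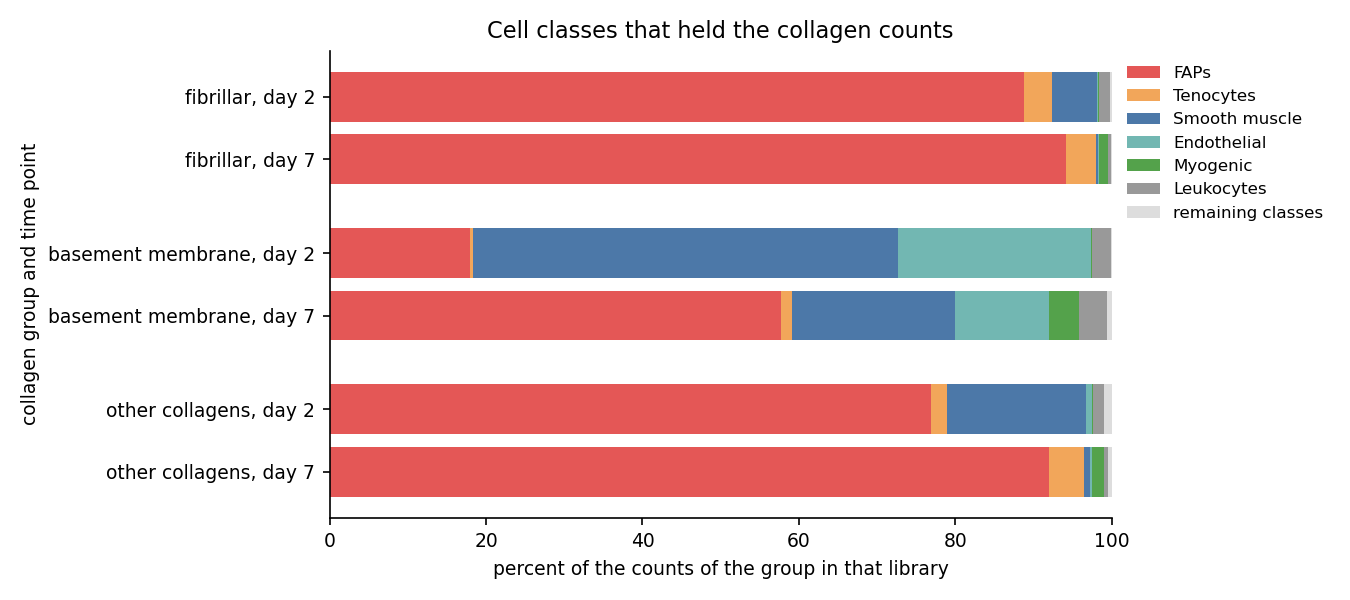
Percent of the counts of each collagen group held by each cell class (colours) in the day 2 and day 7 libraries; every bar adds up to 100. FAPs took most of the fibrillar and other groups at both times, and their part of the basement membrane group moved from 18.0 to 57.8%.

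The change of source was seen in the 4 most abundant basement membrane genes and not in every sparse one. Smooth muscle had the largest share of Col4a1 (53.0%) and Col4a2 (55.9%) at day 2, and FAPs did at day 7 (54.8% and 51.7%). For these type IV chains the day 7 level in CPM was still lower in FAPs than in both vessel classes. Col15a1, whose chain anchors basement membrane to fibrils, was held by smooth muscle (52.6%), endothelial cells (23.2%), FAPs (12.9%) and neutrophils (9.14%) at day 2, and by FAPs (71.5%), smooth muscle (13.7%) and endothelial cells (5.93%) at day 7. Col18a1, the source of the fragment endostatin, moved from 70.9% in smooth muscle and 17.6% in FAPs to 10.1% and 68.3%. For the sparse chains Col4a4 and Col4a5 FAPs had the largest share at both times, with 46.9% (23 counts, against 22 in smooth muscle) and 93.2% of Col4a4 and 92.3% (of 26 counts) and 76.2% of Col4a5. Over the 30 members with at least 100 counts, FAPs were the class with the largest share for 19 at day 2, with 2 tied, and for 26 at day 7. The 4 others at day 7 were Col11a1 and Col11a2 in tenocytes, Col20a1 in neural cells and Col26a1 in myogenic cells. FAPs also held a larger part of all counts at day 7, and no such tally over all genes is given. The change from 19 to 26 can therefore not be read as a trait of collagens.

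Within FAPs nearly every collagen measured was higher at day 7. Ratios were taken where a gene had at least 50 counts in a class over both libraries. In FAPs 25 members passed, and 23 of them were 2-fold or more higher at day 7, 0 were 2-fold or more lower and 2 lay between (Col12a1 and Col8a1). Of all 10391 genes that passed in FAPs, 22.7% were 2-fold or more higher and 14.4% lower. The median log2 ratio was 2.84 over the collagens and 0.15 over all genes. A minimum over both libraries lets in genes through the library where they are high. With the minimum put on day 2 alone, a setting added after seeing the data, 18 members passed, of which 16 were higher and 0 lower, against 11.8% and 18.6% of all genes.

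The type I and III chains (Col1a1, Col1a2, Col3a1) were 45.7% of the collagen counts of FAPs at day 2 and 74.8% at day 7. Col1a1 was at 632 CPM in the 215 FAPs of day 2 (3246 counts) and 20135 CPM in the 805 FAPs of day 7 (164103 counts). Its log2 ratio was 4.99 (4.94 to 5.04). Col3a1 was at 1563 and 25357 CPM, a log2 ratio of 4.02, and Col1a2 at 840 and 12525 CPM, a log2 ratio of 3.90. The type V chains, which join these fibrils, had smaller ratios. Col5a1 was at 200 and 1600 CPM, 8.01-fold higher (7.52 to 8.55), while Col5a2 at 446 and 2478 CPM had a log2 ratio of 2.47 and Col5a3 at 235 and 1177 CPM one of 2.33. Col27a1, a chain known from cartilage, was at 38.4 and 108 CPM (1.49). All 7 fibrillar members that passed were therefore higher, with the type I chains above the type V chains in size of ratio and no overlap of their intervals. Together the fibrillar genes made up 59.6% of the collagen counts of FAPs at day 2 and 81.8% at day 7. Col3a1 alone was 23.5% and then 32.7% of them, and Col1a1 9.53% and then 26.0%.

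Of the basement membrane group, Col15a1 (chromosome 4, 47208161 to 47313167) had the largest ratio. FAPs held it at 23.4 CPM (120 counts) and then 1041 CPM (8483 counts), and its log2 ratio of 5.48 (5.22 to 5.75) was above that of Col1a1. Col18a1 was at 31.9 and 205 CPM (log2 ratio 2.68). The main type IV chains were already high at day 2 and moved less. Col4a1 was at 855 and 2120 CPM (1.31) and Col4a2 at 416 and 1140 CPM (1.45), the 2 smallest ratios of the group. The minor chains Col4a3, Col4a4 and Col4a5, best known from kidney, were sparse, with 6, 23 and 24 counts at day 2 and 68, 220 and 182 at day 7, and had log2 ratios of 2.84, 2.59 and 2.26.

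Among the other collagens the type VI chains moved with the fibrillar ones. Col6a1 was at 217 and 2497 CPM (log2 ratio 3.52), Col6a2 at 186 and 2096 CPM (3.50) and Col6a3, the largest chain of the molecule, at 463 and 3338 CPM (2.85). Col6a6, a chain thought to take the place of Col6a3 in some molecules, was at 6.43 and 156 CPM (4.60), and Col6a5 at 3.31 and 15.5 CPM (2.22). The FACIT chains did not move as one. Col14a1 was at 25.7 and 805 CPM, a log2 ratio of 4.97, and Col16a1 at 35.5 and 244 CPM (2.78), while Col12a1, which binds the same kind of fibrils, was at 59.0 and 89.7 CPM (0.60). The transmembrane chain Col23a1 was at 6.04 and 45.2 CPM (2.90).

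The network-forming pair differed in the sign of the ratio, though that of Col8a2 rests on few day 2 counts. Col8a1, a chain of the type VIII collagen found under vessel and corneal endothelium, was at 339 CPM (1742 counts) and then 248 CPM (2024 counts) in FAPs, with a log2 ratio of -0.45 (-0.54 to -0.36). For its partner Col8a2 there were 2 and then 98 counts, so that it passed through the day 7 library, where it was high. Its log2 ratio of 4.95 had a wide interval of 3.06 to 8.01. Col8a1 was the only one of the 25 members with a ratio below 0 in FAPs.

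**Figure D3:**
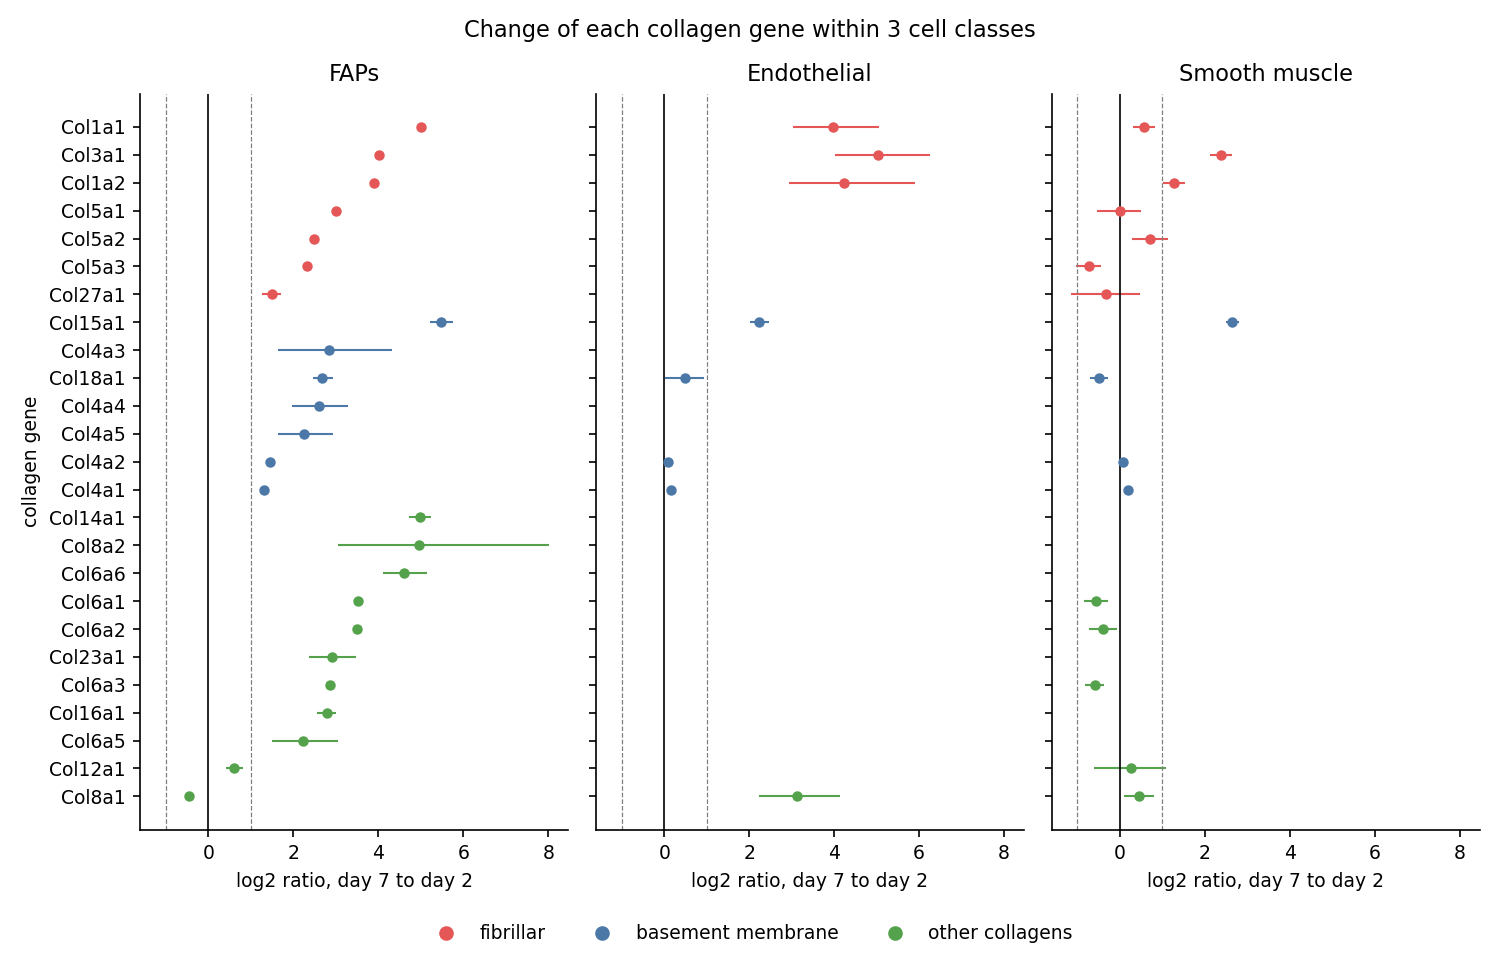
Log2 ratio of the day 7 level to the day 2 level for each collagen gene that reached 50 counts over both libraries, in FAPs, endothelial cells and smooth muscle, with 95% counting intervals; dashed lines mark 2-fold. In FAPs the points run from -0.45 (Col8a1) to 5.48 (Col15a1), and Col4a1 and Col4a2 lie near 0 in both vessel classes.

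The 3 FAP subtypes in the annotation showed the same direction with different starting points. Pro-remodeling FAPs (138 cells at day 2, 495 at day 7) had 23 of 25 members 2-fold or more higher, adipogenic FAPs (30 and 232 cells) 18 of 21 and stem FAPs (47 and 78 cells) 16 of 18, where 22.9%, 18.6% and 14.3% of all genes passed in the same direction. These counts use the minimum over both libraries, which lets in members through the day 7 library. No count with the minimum on day 2 alone is given by subtype. The 1 member that was 2-fold or more lower was Col8a1 in adipogenic FAPs, with a log2 ratio of -1.14, where 15.3% of all genes were lower. In stem FAPs Col8a1 was at 94.5 and 148 CPM, a log2 ratio of 0.65, so its direction was not shared by the subtypes.

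At day 2 single members set the subtypes apart. Col15a1 was at 73.0 CPM in adipogenic FAPs, 26.5 in pro-remodeling FAPs and 0.788 CPM (1 count) in stem FAPs, and at day 7 at 720, 1225 and 134 CPM. Col14a1 was instead highest in stem FAPs at day 2, at 72.5 CPM against 39.3 in adipogenic and 7.41 in pro-remodeling FAPs, and was at 1016, 963 and 739 CPM at day 7. Col5a3 was highest in pro-remodeling FAPs at both times (288 against 136 in stem and 59.0 CPM in adipogenic FAPs at day 2, and 1301 against 833 and 861 CPM at day 7), and so was Col4a1, at 1088 CPM at day 2 and 2432 CPM at day 7.

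Cell by cell, the collagen share of FAPs was far higher at day 7. The median FAP held 0.626% of its counts in collagen at day 2 and 7.54% at day 7. By subtype the medians were 0.658% and 8.19% in pro-remodeling, 0.555% and 6.50% in adipogenic and 0.421% and 5.12% in stem FAPs. The 10th percentile of the day 7 FAPs, 3.48%, lay above the highest of the day 2 FAPs, 2.77%, and the highest cell at day 7, a stem FAP, held 20.4%. Endothelial cells had medians of 0.381% and 0.488%, smooth muscle 0.452% and 0.541%, and monocytes and macrophages 0% and 0.0239%.

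**Figure D4:**
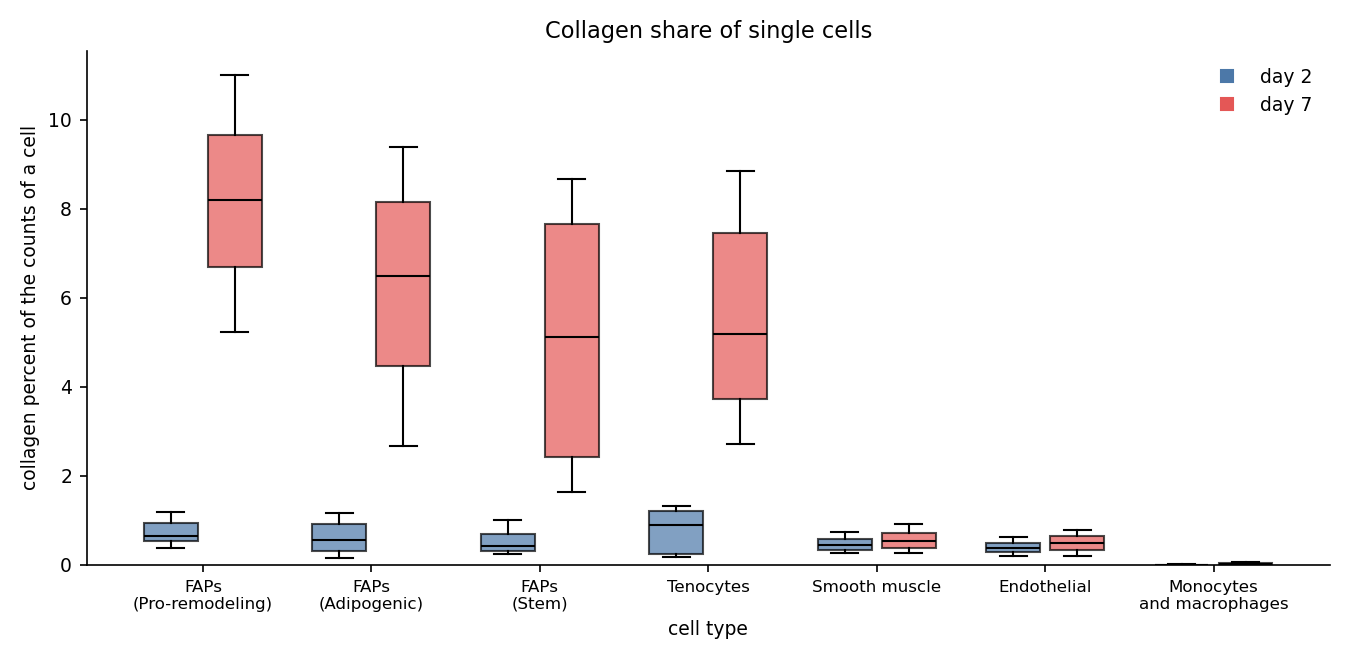
Percent of the counts of a single cell that came from collagen genes, by cell type and time point; boxes give the quartiles with the median as a line and whiskers the 10th and 90th percentiles of cells, which are not replicates. The medians of the 3 FAP subtypes ran from 0.421 to 0.658% in the day 2 library and from 5.12 to 8.19% in the day 7 library.

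Nearly every FAP held a type I collagen count at both times. Col1a1 was found in 97.7% of FAPs at day 2 and 99.9% at day 7 at median depths of 24329 and 8429 counts. After thinning every cell to 2000 counts, the shares were 63.4% and 99.6%. In monocytes and macrophages, which are not known as makers of type I collagen, they were 1.93% and 32.6% before and 0.465% and 10.4% after thinning. Col15a1 was found in 27.4% and 85.7% of FAPs, or 5.16% and 70.2% after thinning.

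The ratio of the type I chains changed in FAPs. There were 0.752 Col1a1 counts (0.719 to 0.788) for each Col1a2 count at day 2 and 1.61 (1.60 to 1.62) at day 7. The 3 subtypes had the same direction, with a lower day 7 ratio in stem FAPs: 0.750 and 1.62 in pro-remodeling, 0.884 and 1.64 in adipogenic and 0.707 and 1.39 (1.35 to 1.43) in stem FAPs. In tenocytes the ratio was 0.982 and 1.76. In the smooth muscle class it went the other way, from 1.26 (1.05 to 1.51) to 0.773 (0.644 to 0.927). Free RNA lay at 1.01 and 1.29. In day 7 neural and myogenic cells it lay well below, at 0.369 and 0.301.

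The type III to type I ratio moved too, and not in one direction. Col3a1 to Col1a1 was 2.47 (2.37 to 2.57) and 1.26 (1.25 to 1.27) in FAPs, but 0.599 and 2.09 in smooth muscle and 0.241 and 0.724 in tenocytes, and 1.96 and 1.64 in free RNA.

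The type IV and VI pairs moved less in the main sources. Col4a1 to Col4a2 was 2.06 and 1.86 in FAPs, 1.47 and 1.55 in endothelial cells and 1.50 and 1.63 in smooth muscle, and 1.71 and 2.94 in monocytes and macrophages, on 100 and 67 Col4a2 counts. Col6a1 to Col6a2 was 1.17 and 1.19 in FAPs and 1.52 and 1.36 in smooth muscle. In day 7 myogenic cells it was 3.14 (2.58 to 3.84), outside the interval of every other class shown at that time. Because 3′ capture differs between transcripts, a ratio of counts is not a ratio of chains, and it is the difference between classes or times that can be read.

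**Figure D5:**
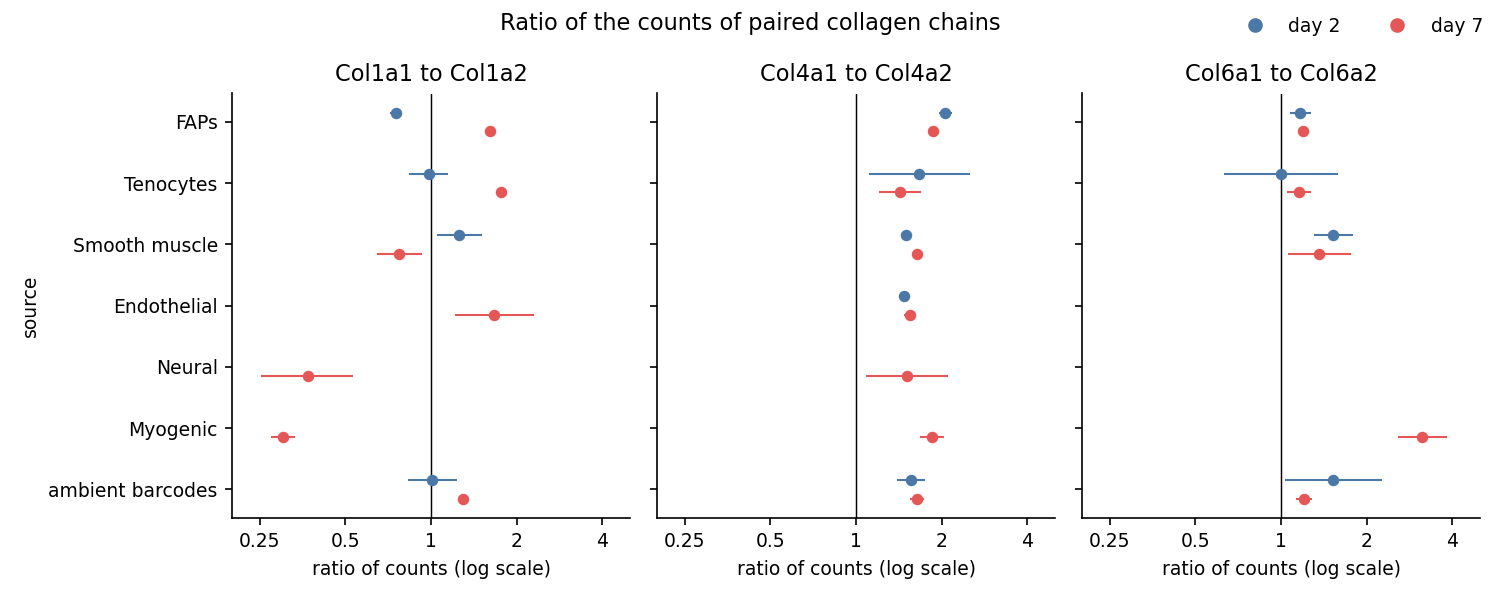
Ratio of the counts of the first chain to the second for 3 pairs of collagen chains, on a log axis, by cell class and in free RNA (ambient barcodes), at day 2 (blue) and day 7 (red) with 95% counting intervals; ratios resting on few counts are left out. Col1a1 to Col1a2 in FAPs moved from 0.752 to 1.61, while Col4a1 to Col4a2 lay between 1.42 and 2.06 in the 6 classes and free RNA plotted. Blood cells are not plotted.

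Genes that process, bind and degrade collagen were counted in FAPs from fixed lists. Of 30 genes for synthesis and assembly, 27 passed the minimum, 9 were 2-fold or more higher at day 7 and 1 was lower, where 22.7% and 14.4% of all genes in FAPs were. With the minimum put on day 2 alone, 26 passed and 8 were higher, against 11.8% of all genes. The 9 were Sparc, a collagen-binding protein of the matrix (2231 and 12044 CPM, log2 ratio 2.43), the prolyl hydroxylases P4ha3 (4.57) and P4ha2 (1.20), the lysyl hydroxylase Plod1 (1.90), the propeptide-processing genes Adamts2 (2.13), Bmp1 (1.69) and Pcolce (1.67), the transcription factor Creb3l1 (2.11) and the crosslinking enzyme Loxl2 (2.00). Loxl4 was at -2.12, on 63 and 23 counts. The collagen chaperone Serpinh1 was at 1253 and 1576 CPM (0.33) and the hydroxylase subunit P4hb at 0.32, below every collagen with a ratio in FAPs except Col8a1. The median of this list was 0.72.

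The 3 further lists are read against the same shares of all genes, 22.7% higher with the minimum over both libraries and 11.8% with the minimum on day 2. Of 7 collagenolytic proteases, 6 passed and 6 were 2-fold or more higher at day 7, but Mmp9, Mmp13 and Mmp16 passed through the day 7 library, where they were high. With the minimum on day 2 alone, 3 passed and 3 were higher: the gelatinase Mmp2 (184 and 1880 CPM, log2 ratio 3.35), the cysteine protease Ctsk (3.32) and the membrane-bound Mmp14 (2.28). Mmp13 had 0 counts at day 2 and 97 at day 7. Of 12 receptor and uptake genes, 6 passed and 3 were higher: the integrin chains Itga11 (3.82) and Itga1 (3.22) and the uptake receptor Mrc2 (1.57), and with the day 2 minimum 3 passed and 1 was higher. The collagen receptor Ddr2 was at 211 and 175 CPM (-0.27). Of 15 partners of type IV collagen in basement membranes, 11 passed and 9 were higher, among them the linkers Nid2 (3.41) and Nid1 (2.14), the laminin chains Lama2 (2.73) and Lamb1 (2.59) and perlecan, Hspg2 (1.60). Lamb2 (0.61) and Lamc3 (0.02) were the 2 that were not. With the day 2 minimum, 8 partners passed and 7 were higher.

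Endothelial cells, 336 and 333 in number, kept a basement membrane profile. The group was at 3880 and 4609 CPM, with a log2 ratio of 0.25. Col4a1 was at 2236 and 2510 CPM (0.17) and Col4a2 at 1517 and 1619 CPM (0.09), so both were within 2-fold. Of 8 collagens that passed, 5 were 2-fold or more higher and 0 lower, where 12.1% and 9.46% of all genes were. The 5 were Col15a1, Col8a1, Col1a1, Col1a2 and Col3a1, and all but Col15a1 had 5 to 12 counts at day 2, so that they passed through the day 7 library.

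These 5 genes differed in how they related to free RNA. Col15a1 was at 89.1 CPM (216 counts) and 420 CPM (704 counts) in endothelial cells, a log2 ratio of 2.24, and Col8a1 had 12 and 72 counts, a log2 ratio of 3.12 (2.22 to 4.13). With SoupX-corrected values, in which the authors took out free RNA, these were 2.21 and 3.22. For Col1a1, Col1a2 and Col3a1 the counts were 10 and 108, 5 and 65, and 8 and 180. At day 7 the levels of these 3 genes in endothelial cells were 2.03 to 2.65% of their levels in free RNA, a range close to that in leukocytes, and with SoupX-corrected values Col1a1 was at 0.59, within 2-fold, Col1a2 at 2.72 and Col3a1 at 4.58. Col15a1 in endothelial cells was at 215% of its level in free RNA at day 7, and Col8a1 was at 42.9 CPM against 53.6 CPM in free RNA. With SoupX-corrected values 2 collagens in all reached both the count minimum and 2-fold, a count given without the share over all genes. The FAP markers, Cd34 among them, were at a summed 613 CPM at day 2 and 988 CPM at day 7 in endothelial cells. This sum is not split by gene here, and the part of FAP RNA in it was not tested.

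By vessel type, Col15a1 was at 50.2 CPM in capillary, 27.9 in stem-annotated, 47.3 in artery (15 cells, 6 counts) and 460 CPM in vein cells (12 cells, 126 counts) at day 2. At day 7 it was at 465, 411, 108 (26 artery cells) and 518 CPM in the same order. At day 2 the 12 vein cells held 126 of the 216 endothelial counts, so the class level of Col15a1 rested largely on them. Col8a1 at day 7 lay mostly in artery cells, at 240 CPM with 40 of the 72 endothelial counts.

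The class annotated as smooth muscle carried the markers of vessel lining too. Of its cells, 294 of 304 at day 2 and 205 of 232 at day 7 held 3 or more endothelial marker counts. The basement membrane group was at 4063 and 4965 CPM, a log2 ratio of 0.29, with Col4a1 at 2297 and 2641 CPM (0.20) and Col4a2 at 1533 and 1616 CPM (0.08). Col15a1 was at 95.7 and 601 CPM, a log2 ratio of 2.65. Of 16 members that passed, 3 were 2-fold or more higher (Col15a1, Col3a1 at 2.37 and Col1a2 at 1.27) and 0 lower, where 11.2% and 7.34% of all genes were. With SoupX-corrected values Col1a2 was at -0.12 and Col1a1, at 0.57 in uncorrected counts, at -1.54.

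Type VI and some other chains were lower at day 7 in this class, all within 2-fold. Col6a3 was at 132 and 87.8 CPM (-0.59), Col6a1 at 79.7 and 54.2 CPM (-0.55), Col6a2 at 52.3 and 39.9 CPM (-0.39), Col18a1 at 129 and 91.5 CPM (-0.50) and Col5a3 at 76.9 and 46.1 CPM (-0.74). Averaged over cells instead of counts, Col6a1 was at 0.10 and Col18a1 at 0.06, so their direction depended on how cells were weighted.

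Tenocytes were few, 16 at day 2 and 48 at day 7, and no ratio was taken. All 6 of their markers were detected at day 2, at 22735 CPM. Fibrillar collagen was at 5269 and 48038 CPM, and the order of chains differed from that in FAPs, with Col3a1 below Col1a1 at both times. Col1a1 was at 2052 and 18935 CPM, Col1a2 at 2090 and 10770 CPM and Col3a1 at 494 and 13713 CPM. Tenocytes were also the main source of Col11a1, a chain of thin fibrils, at 108 and 257 CPM, with 86.5% of its counts at day 7. They held Col12a1 at 247 and 450 CPM and Col8a1 at 76.0 and 924 CPM. Col22a1, known from the muscle to tendon junction, was at 58.2 CPM at day 7 on 26 counts, 9 of them in 1 cell.

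Neural cells, 9 and 41, held most of the counts of the FACIT chain Col20a1 at day 7. It was the highest collagen in them at both times, at 820 CPM (616 to 1069) on 54 counts and 830 CPM (712 to 961) on 178 counts, and they held 82.0% of its counts at day 7 although they were 1.28% of the cells. At day 2, 37 of the 54 counts lay in 1 of the 9 cells, and without it the level was 296 CPM. At day 7 Col18a1 was at 620 CPM, Col27a1 at 182 CPM and Col28a1, a chain known from peripheral nerve, at 60.6 CPM on 13 counts. All 6 glial markers were detected at both times.

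Myogenic cells could be described at day 7. The day 2 cells, 22 in number, held 93 counts of their own markers, with Myog at 0, against 27350 CPM of erythroid markers, and 5 of the 21 annotated as muscle stem cells (MuSCs) had 3 or more marker counts, so no comparison with them is made. At day 7, 132 of 137 MuSCs and 175 of 175 myoblasts met that count. In MuSCs Col3a1 was at 1166 CPM, Col1a2 at 780, Col4a1 at 664, Col5a2 at 394, Col1a1 at 386 and Col15a1 at 241 CPM. In myoblasts the same 6 genes were lower, at 537, 504, 277, 192, 106 and 106 CPM. The same 4 genes (Col3a1, Col1a2, Col4a1, Col5a2) led in both, with lower levels in myoblasts. A single MuSC held 108 of the 290 Col1a1 counts, and without it Col1a1 was at 244 CPM. FAP markers were present in these cells too. Their list includes Cd34, which the paper also names among the markers by which MuSCs are selected. A split of myogenic cells by this list is therefore not one by FAP RNA alone. Of the 312 myogenic cells, the 181 with 3 or more FAP marker counts held 90.6% of the Col1a1 counts, 86.6% of Col1a2, 85.0% of Col5a2 and 84.5% of Col3a1. Their levels were 873 CPM for Col3a1 and 743 CPM for Col1a2, against 313 and 225 CPM in the rest, and the part of FAP RNA in these values was not tested.

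Against free RNA, the myogenic cells of day 7 held Col1a1 at 6.93% of its level there, Col3a1 at 16.8%, Col1a2 at 29.8% and Col5a2 at 52.2%, each a higher percentage than in endothelial or smooth muscle cells. For Col4a1 (62.1%) and Col15a1 (70.3%) the percentage was below those of both vessel classes, where Col4a1 was at 424 and 446% and Col15a1 at 215 and 307%. Of the members with at least 100 counts, Col26a1 was the one with most of its day 7 counts in myogenic cells, 84.4% of them, at 65.2 CPM in MuSCs and 41.1 CPM in myoblasts. Col19a1, a sparse FACIT chain, was at 29.3 CPM in MuSCs on 22 counts, and myogenic cells held 87.8% of its 49 counts at day 7.

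The main interstitial chains in leukocytes as a whole were a small part of their level in free RNA. Col1a1, Col1a2, Col3a1, Col5a2 and the type VI chain Col6a3 were at 2.64 to 3.87% of their levels in free RNA at day 2 and 1.99 to 2.32% at day 7. The sparser fibrillar chains lay higher, Col27a1 at 12.6 and 24.5% and Col11a2 at 88.9 and 77.1%, and so did single classes at day 2, with Col6a3 at 49.1% (8 counts) and Col1a1 at 16.1% (4 counts) in T and NK cells and Col3a1 at 9.20% in neutrophils. Type IV collagen in lymphocytes lay in few cells. Of 1010 Col4a1 counts in day 7 T cells, 984 lay in the 24 of 293 cells with 3 or more endothelial marker counts, and at day 2 it was 176 of 177 counts in 10 of 50 cells.

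Some values in blood cells stood above free RNA. At day 2 Col4a1 was at 499 CPM in T and NK cells and 322 CPM in B cells against 262 CPM in free RNA, and Col4a2 at 295 CPM in T and NK cells against 168 CPM. These lay in few cells. All 32 counts of Col4a1 in B cells were in the 3 of 29 cells with 3 or more endothelial marker counts, and without the highest cell of each, a setting added after seeing the data, the Col4a1 values were 275 CPM in T and NK cells and 155 CPM in B cells, and the Col4a2 value 169 CPM. At day 7 Col27a1 was at 38.5 CPM in dendritic cells, on 40 counts, against 20.5 CPM. Col15a1 was at 43.6 CPM in day 2 neutrophils against 13.4 CPM in free RNA, on 85 counts in 56 of 708 cells with at most 5 in a cell. None of the 85 counts lay in the 10 neutrophils with 3 or more endothelial marker counts. The sparse fibrillar chain Col11a2 was at 8.21 CPM in the same cells against 2.62 CPM in free RNA, on 16 counts.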

How the data were processed

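The authors deposited UMI counts, whole numbers per gene and barcode, for all barcodes and for called cells, aligned to mm10 (the submitters' processing notes name Cell Ranger 3.1.0 and Seurat 3.1.5, the matrix header software version 3.0.1). A second deposited matrix holds estimated counts from which the authors had subtracted ambient RNA with SoupX, used as an alternative. Cell types came from the deposited annotation table. Per the methods, doublets were removed with DoubletFinder before annotation, and no doublet caller was run here.

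Kept cells were in the table and had at least 750 genes, 1000 transcripts and at most 30% mitochondrial transcripts in the SoupX values. Per class and library, counts were added up and scaled to CPM. Exact intervals were Poisson for sums, Clopper-Pearson for shares and conditional binomial for ratios. No p-value was computed, since cells are not replicates. Ratios needed 20 cells at both times and 50 counts over both libraries, and were read against a fold of 2. A count of 0 allows 3 counts. Values are given for members with at least 100 counts and ratios for those that passed. The sparser Col2a1, Col10a1, Col19a1 and Col22a1 were named after their values were seen. The members and lists were chosen with earlier results of these data known. Ratio intervals were tested on simulated Poisson sums of a class. That test held no clustering of counts in cells, so it cannot show how the intervals do under it. Alternatives were SoupX values, limits on cells, weighting, scaling, count minimums and thinning to 2000 counts. Python 3.11.15, NumPy 2.4.6, pandas 2.3.3 and SciPy 1.17.1 were used. Coordinates came from GENCODE vM21, which matched all 44 members. Promoter stretches came from RefSeq.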

Additional observations from a re-analysis of the deposited data

Results flagged for a closer look

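Some collagens were lower at day 7 in one class and higher in another, with intervals on opposite sides of 0. In smooth muscle the log2 ratios were -0.50 for Col18a1 (0.48 in endothelial cells and 2.68 in FAPs), -0.74 for Col5a3 (2.33 in FAPs), -0.55 for Col6a1 (3.52 in FAPs), -0.39 for Col6a2 (3.50 in FAPs) and -0.59 for Col6a3 (2.85 in FAPs). As a mean over cells Col6a1 and Col18a1 in smooth muscle were at 0.10 and 0.056. In FAPs Col8a1 was at -0.45, against 3.12 in endothelial cells and 0.45 in smooth muscle. With 1 library per time point these differences between classes were not tested.

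Called barcodes that the annotation table leaves out also held collagen. In 1299 such barcodes at day 2, with a median depth of 2076 counts, collagens were 0.207% (0.204 to 0.211) of the counts, above the 0.0943% of free RNA. In 1473 at day 7, with a median depth of 1066 counts, they were 0.710% (0.702 to 0.718), below the 1.22% of free RNA. Which cells these were was not tested.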

How the results depend on the processing

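No paired analysis was possible because each time point held 1 library, and for the same reason no run without a replicate was made. Depth limits the sparse members most: the log2 ratio of Col8a2 in FAPs, on 2 counts at day 2, had an interval of 3.06 to 8.01.

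The collagen share of all counts was 0.209% at day 2 and 2.56% at day 7 with SoupX-corrected values, 0.203% and 2.50% with no limits on cells, 0.212% and 2.56% with stricter limits, and 0.147% and 2.10% as a mean over cells. In free RNA it was 0.129% and 1.43% in barcodes with 1 to 10 counts and 0.0814% and 1.19% in those with 11 to 100. The FAP share of fibrillar counts was 89.8% and 94.8% with SoupX-corrected values, 94.2% at day 7 with stricter limits, and 63.7% and 74.8% with cell types weighted equally. The FAP share of the other collagens at day 7 was 92.6% with SoupX-corrected values and 92.2% with stricter limits, and with equal weights it was 52.0% at day 2 and 64.9% at day 7. With cell types weighted equally the basement membrane group was 12.3% and 26.1% in FAPs and 57.3% and 42.3% in endothelial cells, which have 4 annotated types, against 3 for FAPs and 1 for smooth muscle. With classes weighted equally, chosen after seeing the data, it was 10.8% and 23.6% in FAPs and 31.3% and 23.8% in endothelial cells, and the FAP share was 36.5% and 53.8% for the fibrillar group and 30.4% and 46.4% for the other collagens. The fibrillar level in FAPs was 4060 and 64805 CPM with SoupX-corrected values and 4118 and 59679 CPM as a mean over cells, and the basement membrane level of day 2 endothelial cells was 3977 CPM with SoupX-corrected values.

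Log2 ratios of the groups in FAPs kept their direction. The fibrillar one was 3.86 as a mean over cells, 4.11 scaled to non-collagen counts and 3.92 with median-of-ratios scaling. The basement membrane one was 1.88 and 1.69 under the last 2 settings, and that of the other collagens 2.75, 2.94 and 2.75 under the 3. The basement membrane ratio was 0.18 in endothelial cells and 0.18 in smooth muscle with median-of-ratios scaling, and 0.17 in smooth muscle as a mean over cells. Col1a1 to Col1a2 in FAPs was 0.802 and 1.62 as a mean over cells. In endothelial cells, 11 collagens were 2-fold or more higher and 1 lower with a minimum of 20 counts, 1 was higher with a minimum of 200, and 2 with SoupX-corrected values. No share of all genes is given at these settings, so these counts show only that the tally depends on them. Thinned to 2000 counts, Col1a1 was found in 63.4% of day 2 FAPs and in 0.465% and 10.4% of monocytes and macrophages. Of 353 values recomputed for 59 ratios, each of a gene in a class, 7 turned in direction, all in smooth muscle: Col1a1 (-1.54), Col1a2 (-0.12) and Col5a2 (-0.082) with SoupX-corrected values, Col6a1 (0.10), Col18a1 (0.056) and Col4a2 (-0.029) as a mean over cells, and Col4a2 (-0.037) with median-of-ratios scaling. A further 47 moved beyond their counting interval and 299 did not. The causes were not tested.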
